A study of Mus musculus with 4 samples.

Results

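Mural cells wrap the small vessels of the spinal cord. Pericytes sit on capillaries within the basement membrane, and smooth muscle cells ring arterioles. The 122 nuclei described here were picked from 112194 kept nuclei of the mouse spinal dorsal horn, 0.109% of them (Clopper-Pearson 95% interval 0.0903 to 0.130%), by their UMIs (unique molecular identifiers, 1 per captured RNA molecule) of mural genes. A nucleus had to hold at least 4 UMIs, and at least 0.3% of all its UMIs, summed over 9 genes: Pdgfrb, Rgs5, Abcc9, Atp13a5, Kcnj8, Notch3, Acta2, Myh11 and Higd1b. This sum had to exceed that of 6 endothelial genes and that of 5 fibroblast genes, and 5 neuronal genes had to make up under 2% of the UMIs. Kept nuclei had at least 300 genes and under 5% mitochondrial UMIs. Because these counts chose the nuclei, levels of the 9 genes and every difference from nuclei left out are descriptions, with no test.

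The study compared mice lacking Gpr37l1, a gene for a G protein-coupled receptor that is active chiefly in astrocytes, with wild-type mice, either uninjured (naive) or 1 day past spared nerve injury (SNI), an operation that models neuropathic pain. Each of the 4 groups was 1 single-nucleus library of dorsal horn tissue: Gpr37l1+/+ naive, Gpr37l1-/- naive, Gpr37l1+/+ SNI and Gpr37l1-/- SNI, called WT naive, KO naive, WT SNI and KO SNI; values in a series of 4 follow that order. The labels do not give age, sex, the number of animals pooled or the cells in which the knockout was made. The treatment tag contradicts the title for KO naive and WT SNI, and groups follow the titles. With 1 library per group no test was possible, and 95% intervals cover counting error only, not variation between animals. Over all kept nuclei Gpr37l1 had 495, 23, 1293 and 11 UMIs, which is 14.3, 0.3, 25.8 and 0.3 CPM (UMIs scaled to a total of 1000000, mitochondrial genes left out), low in both libraries titled knockout. The libraries shared 1296 barcodes over all pairs and none among the 122 nuclei.

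Pericytes depend on PDGF-B from endothelial cells, which acts on the receptor PDGFRB, and on Notch signals through NOTCH3. Their potassium channel of KCNJ8 and ABCC9 couples metabolism to membrane voltage, and smooth muscle is set apart by a contractile apparatus of smooth muscle actin and myosin, ACTA2 and MYH11. The label under which these nuclei were picked names both cell types, but the counts show the first and hardly the second. The 122 nuclei held 263 UMIs of Atp13a5, 123 of Pdgfrb, 112 of Abcc9 and 68 of Notch3. In contrast they held 10 UMIs of Myh11 and 2 of Acta2. Acta2 and Myh11 together reached 2 UMIs in 4 nuclei, 1 UMI in 1 nucleus and 0 in 117. Of the other contractile genes Tagln (transgelin) had 1 UMI, and Cnn1, Lmod1, Actg2, Pln, Sncg and Myocd, the cofactor that drives the smooth muscle programme, had none among 128439 non-mitochondrial UMIs, which allows up to 23.4 CPM. In the whole series 28 kept nuclei held 2 or more Acta2 and Myh11 UMIs. The nuclei are therefore called pericyte-like below, and smooth-muscle-leaning nuclei, too few to describe as a set, are not compared.

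The libraries gave 11, 50, 30 and 31 pericyte-like nuclei, or 0.0559% (0.0279 to 0.0999), 0.133% (0.0990 to 0.176), 0.111% (0.0747 to 0.158) and 0.111% (0.0755 to 0.158) of kept nuclei. WT naive was lowest and its interval met that of KO naive only narrowly, while the other 3 libraries overlapped widely. The chosen nuclei had median UMIs of 592, 966, 741 and 773, lowest in WT naive and highest in KO naive as the share was. Over all kept nuclei the medians were 1446, 1510, 1489 and 1286, lowest in KO SNI. With at least 500 genes per nucleus the counts were 3, 50, 23 and 20. With every nucleus thinned to 1000 UMIs before the rule, and shallower ones left out, the counts were 1, 20, 7 and 6, or 0.00713, 0.0744, 0.0341 and 0.0322% of the nuclei deep enough. WT naive was lowest and KO naive highest. Only 1, 23, 7 and 9 of the chosen nuclei had 1000 or more UMIs, so that order cannot be told apart from their depth. Endothelial nuclei, picked by the same rule with the endothelial genes in the leading place, numbered 34, 98, 85 and 126. Pericyte-like nuclei were thus 24.4% (12.9 to 39.5), 33.8% (26.2 to 42.0), 26.1% (18.3 to 35.1) and 19.7% (13.8 to 26.8) of both kinds together. The same rule found 8 fibroblast nuclei, which were not used.

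Many nuclei stood close to the threshold. Exactly 4 rule UMIs were seen in 41 of the 122, and 42 further nuclei met every other condition with 3; 15 had 4 or more UMIs but 0.2 to 0.3% of their total. Another 68 nuclei had enough mural UMIs but at least as many endothelial ones. Of the 122, 84 carried 3 or more different rule genes, 27 carried 2 and 11 carried 1. Scrublet, a doublet caller, marked 1 of the 122, in KO SNI.

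**Figure D1:**
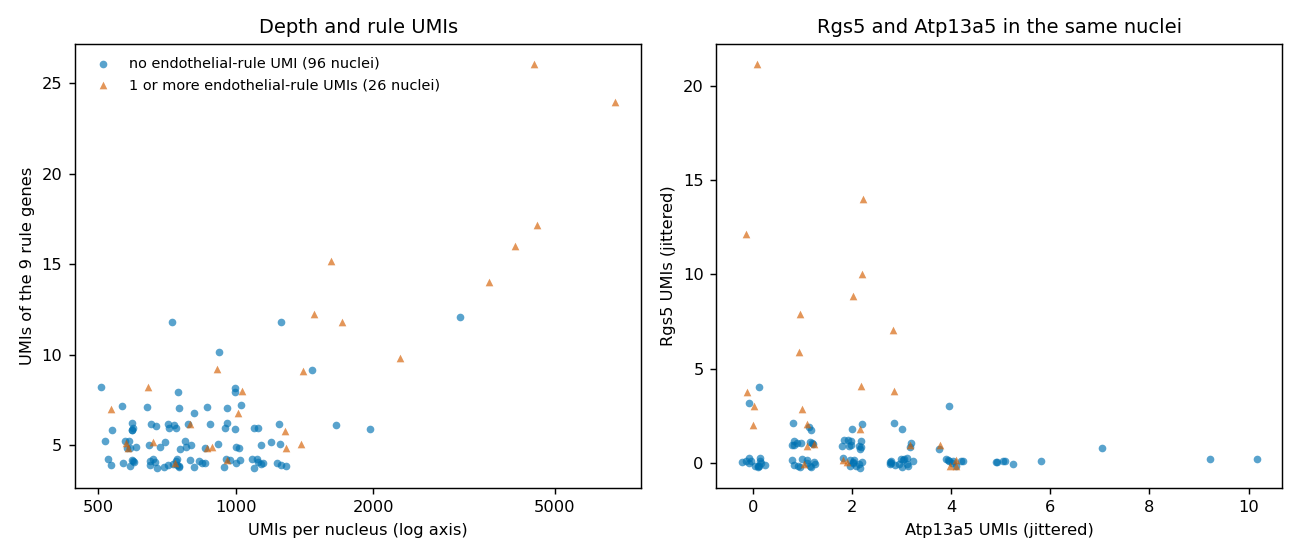
Left, UMIs of the 9 rule genes against all UMIs of each of the 122 nuclei (log axis); right, Rgs5 against Atp13a5 UMIs of the same nuclei, moved slightly at random so that points do not hide each other. Triangles are the 26 nuclei with at least 1 UMI of the 6 endothelial rule genes and circles the 96 without; the nuclei with the most Rgs5, up to 21 UMIs, are nearly all triangles.

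Among the rule genes, Atp13a5, a P5-type ATPase known as a marker of brain pericytes, was seen in 102 of the 122 nuclei. Its counts were 29, 97, 81 and 56 UMIs, or 3869, 1711, 2867 and 1555 CPM, lower in both knockout libraries than in both wild-type ones. All 9 rule genes together summed to 8672, 5522, 6372 and 5804 CPM, highest in WT naive, whose chosen nuclei had the lowest median UMIs. A minimum of 4 rule UMIs weighs more in a shallow nucleus, so CPM of rule genes depend on depth as well. Pdgfrb was seen in 81 nuclei, with 10, 46, 34 and 33 UMIs (1334, 812, 1204 and 916 CPM). Abcc9, the sulfonylurea-receptor subunit of the potassium channel, was seen in 66 nuclei and had 14, 48, 27 and 23 UMIs. Its partner Kcnj8, the pore, had 3, 3, 3 and 7, and Notch3 had 4, 26, 15 and 23. Higd1b, a gene used as a pericyte marker, had 0, 4, 4 and 4, so these last 3 genes were too thin to order the libraries. CPM are not corrected for gene length, and levels of different genes are therefore not ranked. Of nuclei rich in neuronal markers, whose medians were 1672 to 2286 UMIs, 0.51% had an Atp13a5 UMI, 0.47% a Pdgfrb UMI and 1.4% an Abcc9 UMI, taken here as the background that free RNA gives.

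Rgs5, a regulator of G protein signalling often used as the pericyte marker, followed another pattern. It had 4, 86, 13 and 58 UMIs, or 534, 1517, 460 and 1611 CPM: high in both knockout libraries and low in both wild-type ones. In endothelial nuclei the level was 1.19 times as high (1492 against 1253 CPM), and there it was flat, with 1457, 1634, 1443 and 1421 CPM. Rgs5 was concentrated in few pericyte-like nuclei: 52 held any, 16 held 3 or more, and the highest held 21. Of those 16, 13 also held an endothelial UMI, against 13 of the other 106. In the 96 nuclei without an endothelial UMI Rgs5 stood at 636, 737, 217 and 600 CPM, with intervals of 173 to 1628, 482 to 1080, 70 to 505 and 299 to 1073. The genotypes did not separate there: WT naive lay above KO SNI, and WT SNI was lowest. Atp13a5 and Rgs5 were both present in 45 nuclei, Rgs5 alone in 7, Atp13a5 alone in 57 and neither in 13.

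The nuclei with an endothelial UMI are described here without a test, since the rule used both those UMIs and the mural ones: such a nucleus was taken only if its mural sum was the larger, which raises the mural UMIs it had to hold. The 26 with one had a median of 1156.5 UMIs against 775, and 8 of the 11 nuclei with 1500 or more UMIs were among them. Of the rule genes, Atp13a5 was 2.58 times lower in them, Pdgfrb 2.04 times lower and Rgs5 4.56 times higher. Bsg (basigin, a surface protein dense on brain endothelium) had 108 UMIs in the 26 nuclei and 30 in the 96, 6.57 times higher CPM. The endothelial transporter Slco1a4 had 40 against 1, Itm2a had 31 against 3 and the chemokine Cxcl12 had 25 against 2; none of these 3 genes is in the rule, and all 3 were named after their values were seen.

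**Figure D2:**
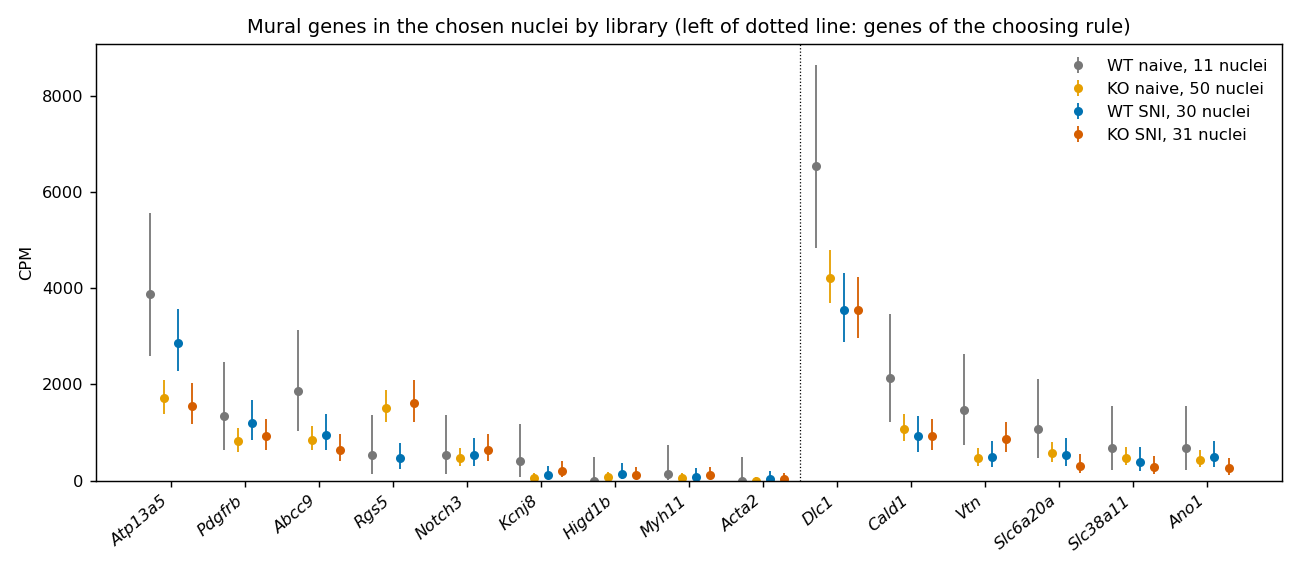
CPM of 15 genes in the pericyte-like nuclei, 1 point per library with exact Poisson 95% intervals; genes left of the dotted line belong to the choosing rule. Atp13a5 is higher in WT naive and WT SNI, Rgs5 in KO naive and KO SNI, and Myh11 and Acta2 lie near 0 in all 4 libraries.

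The deposited files hold no sequence, so sequences were taken from RefSeq (GRCm38.p6), shown for Atp13a5 and Rgs5 because these rule genes ran in opposite directions between the knockout and wild-type libraries. Both count toward the sum that chose the nuclei, so UMIs of either can stand in for UMIs of the other. Without nuclei holding an endothelial UMI, the genotypes did not separate for Rgs5. The 250 bases before each start site are given 5′ to 3′ in the direction of the gene, with GGAATG, the core letters of TEAD sites, in capitals on either strand. Atp13a5 (chromosome 16, 29231851 to 29378732, minus strand, protein coding in GENCODE) has its window at chr16:29378733-29378982, and Rgs5 (chromosome 1, 169655501 to 169695813, plus strand, protein coding) at chr1:169655251-169655500.
Atp13a5: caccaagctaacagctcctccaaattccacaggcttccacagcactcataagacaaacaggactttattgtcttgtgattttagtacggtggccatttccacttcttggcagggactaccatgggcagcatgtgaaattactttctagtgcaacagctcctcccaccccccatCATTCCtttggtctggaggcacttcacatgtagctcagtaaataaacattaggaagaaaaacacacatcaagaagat
Rgs5: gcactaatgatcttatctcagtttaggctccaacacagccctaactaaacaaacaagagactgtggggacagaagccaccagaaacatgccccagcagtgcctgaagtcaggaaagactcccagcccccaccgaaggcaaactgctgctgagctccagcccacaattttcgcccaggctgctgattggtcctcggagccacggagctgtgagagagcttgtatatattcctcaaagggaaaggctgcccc
The GGAATG letters occur once in the Atp13a5 window, on the strand opposite to the one printed, and not in that of Rgs5. They occurred in 12.6% of 32851 RefSeq windows of this length, and in 5 of the 13 windows of 12 mural and contractile genes that matched of 14 looked up (Abcc9, Acta2, Atp13a5, Cald1 and Vtn). The GC-box letters GGGCGG were in 6 of the 13 and 32.7% of all, and the FOX letters TGTTTAC in 1 and 3.17%. RBPJ (CGTGGGAA, 0.636% of all), T-box (AGGTGTGA, 1.12%) and EBF letters (TCCC and GGGA with 2 bases between, 0.779%) were in none of the 13. Strict CArG boxes (CC, 6 bases A or T, then GG, 1.47% of all) were in none either. The Acta2 window holds ccctatatgg and ccttgtttgg, each 1 base off the strict CArG letters and so not counted. None of the motifs searched overlaps another in the 2 windows shown. A match is only a match of letters.

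Genes outside the rule filled in the pericyte profile. Among 86 such genes with at least 100 UMIs, 11, or 12.8%, were 4-fold or more above all other kept nuclei, and 4, or 4.65%, were 4-fold or more above endothelial nuclei. At 20 UMIs, 98 of 1356 genes (7.23%) were 4-fold or more above other nuclei. The rule fixed this contrast, and a UMI minimum in these nuclei favours genes that are high there, so nothing is read from these shares. Dlc1, a GTPase-activating protein, had 49, 239, 100 and 128 UMIs and was 18.2 times above other nuclei (log2 ratio 4.19, 4.06 to 4.31) and 4.10 times above endothelial nuclei. Cald1 (caldesmon, an actin-binding protein shared by smooth muscle and pericytes) had 16, 61, 26 and 33 UMIs and was 32.5 times above other nuclei. Utrn (utrophin, a membrane-cytoskeleton linker) was 10.5 times above other nuclei but 0.78 times the endothelial level, Bsg 4.63 times above other nuclei but 0.23 times the endothelial level.

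Other genes that led at 100 UMIs included Pde8b, Pitpnc1, Grm3, Fry, Ptprk, Plcl1, Plxdc2, Sox5, Mast4, Foxp1, Gpc6, Inpp4b, Sptbn1 and Tmsb4x, between 11.9 and 2.55 times above other nuclei and higher in all 4 libraries. Against endothelial nuclei the leading genes included Pde8b at 6.35 times, the metabotropic glutamate receptor Grm3 at 5.66, Dlc1, the inactive phospholipase Plcl1 at 3.99, Plxdc2 at 3.73, the transcription factor Sox5 at 3.61 and the L-type calcium channel Cacna1c at 3.44. Foxp1, Sptbn1 and Tmsb4x went the other way, at 0.61, 0.45 and 0.42 times the endothelial level. At 50 to 99 UMIs, where genes were singled out after their values were seen, Tbx3os1, an antisense RNA beside Tbx3, had 7, 19, 16 and 8 UMIs and was 429 times above other nuclei. The long non-coding RNA Morrbid was 151 times above, with 5, 22, 12 and 16 UMIs, and the GTPase-activating protein gene Arhgap42 was 20.8 times above, with 7, 26, 29 and 12. Whether the counting used strand is not given in the sources used here, so Tbx3os1 cannot be told from sense RNA at its place.

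**Figure D3:**
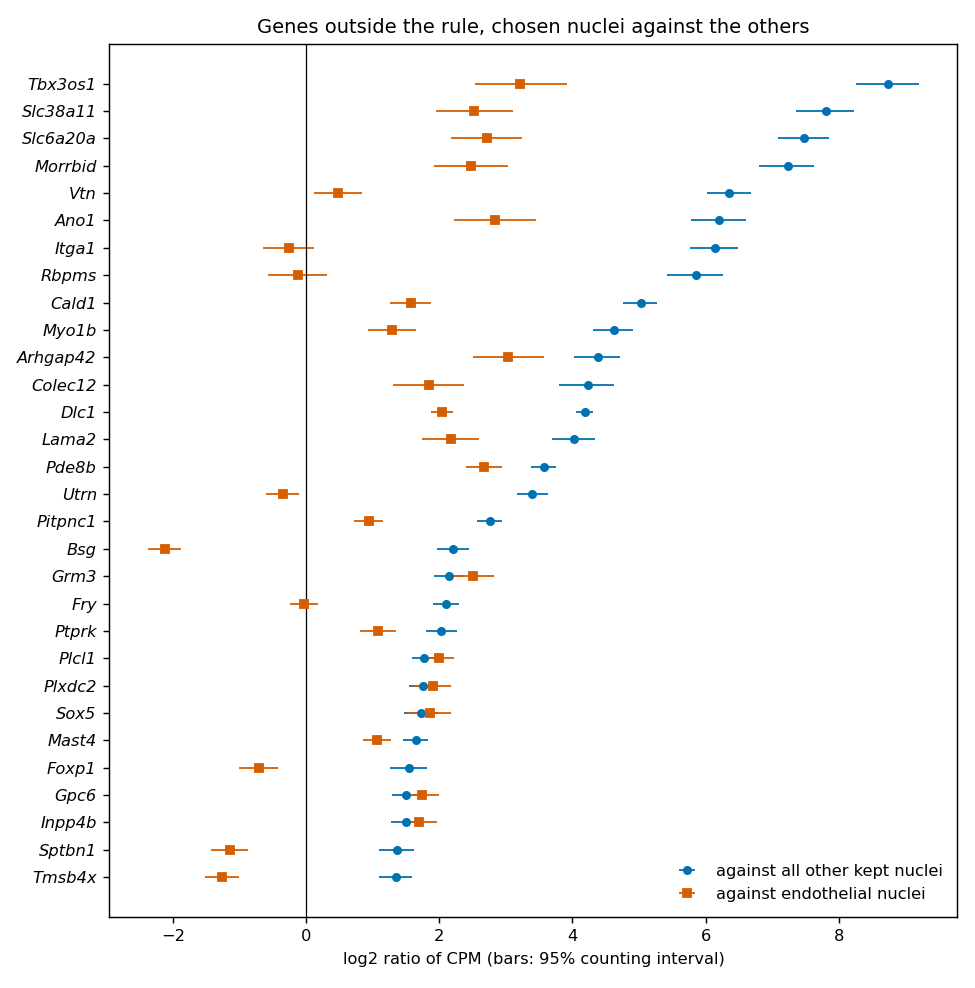
log2 ratios of CPM of pericyte-like nuclei to all other kept nuclei (circles) and to endothelial nuclei (squares), pooled over libraries, with exact 95% counting intervals, for genes outside the rule. Tbx3os1, Slc38a11, Slc6a20a, Morrbid, Ano1 and Arhgap42 lie far to the right in both, while Bsg, Sptbn1 and Tmsb4x lie left of 0 against endothelial nuclei.

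Of the 20 pericyte genes listed outside the rule, 8 had 20 or more UMIs, 11 had 1 to 19 and 1 had none. The list summed to 15210, 10286, 9168 and 7831 CPM, against 4669 in endothelial and 1913 in all other nuclei. Dlc1 gave 516 of the list's 1238 UMIs. Ebf1 gave 177, 80 and 65 of them in KO naive, WT SNI and KO SNI, so these genes weigh heavily in the sum. Vtn, the matrix protein vitronectin, had 11, 26, 14 and 31 UMIs and was 81.8 times above other nuclei but 1.39 times above endothelial ones. The amino acid and imino acid carriers Slc6a20a (8, 32, 15 and 11 UMIs) and Slc38a11 (5, 27, 11 and 10) were 179 and 224 times above other nuclei and 6.56 and 5.76 times above endothelial ones. Ebf1, a transcription factor of mural and other lineages, was broad, at 1.8 times other nuclei and 1.1 times endothelial ones. Cspg4, which encodes NG2 and also marks oligodendrocyte precursors, had 22 UMIs. Among 8 precursor markers Pdgfra had 1 UMI and Neu4 none, but the list summed to 15, 64, 12 and 29 UMIs, 934 CPM against 931 in other nuclei.

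The 24 contractile genes outside the rule gave another picture: 1 had 20 or more UMIs, 17 had 1 to 19 and 6 had none. Cald1 gave 136 of the list's 250 UMIs. Next came the tropomyosin Tpm1 with 17, the myosin phosphatase genes Ppp1r12b with 17 and Ppp1r14a with 14, Mylk (myosin light chain kinase) with 13 and Mcam with 11. The regulatory light chain Myl9 had 9. Mylk, Mcam, Myl9 and the genes at 0 or 1 UMI were named after their values were seen. The list summed to 2668, 1817, 2159 and 1833 CPM, against 1150 in endothelial nuclei and 455 in all others.

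Of 24 ion channel and calcium genes 14 had 20 or more UMIs and 2 had none. Ano1, the calcium-activated chloride channel that depolarises contractile mural cells, had 5, 24, 14 and 9 UMIs and was 73.8 times above other nuclei and 7.13 times above endothelial ones. Cacna1c had 13, 63, 30 and 44 UMIs, 2.08 times other nuclei; its partners Cacnb2 and Cacna2d1 were at 1.5 and 0.8 times. The list as a whole stood at 1.24 times the level of other nuclei, and many of these channels are also known from neurons.

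Of 29 vasoactive receptor and cyclic nucleotide genes 9 had 20 or more UMIs and 6 had none. Pde8b, a cAMP phosphodiesterase, had 33, 106, 48 and 49 UMIs, 11.9 times above other nuclei. Prkg1, the cGMP-dependent kinase, had 17, 131, 67 and 61, 1.8 times above other nuclei and 1.1 times the endothelial level. Gucy1a2, a subunit of the nitric oxide receptor, had 5, 26, 18 and 19 and was 2.8 times above other nuclei, while Pde4d, with 17, 108, 30 and 58, was at 1.1 times. Ednra, the endothelin receptor of mural cells, had 2, 12, 5 and 9 UMIs and was named after its values were seen; it was 73.1 times above other nuclei and 5.8 times above endothelial ones.

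Matrix and carrier genes came next. Of 27 basement membrane and matrix genes 6 had 20 or more UMIs and 3 had none, and the list summed to 3202, 2999, 3504 and 3221 CPM, 6.38 times the other nuclei but below the 4143 of endothelial nuclei. The laminin chain Lama2 had 8, 38, 19 and 18 UMIs (4.51 times endothelial nuclei), Lamc1 had 3, 22, 14 and 17 (3.0 times), the collagen receptor subunit Itga1 had 6, 24, 17 and 21 (0.84 times) and Lama4 had 3, 13, 7 and 4 (0.9 times). Of 21 carriers and pumps 7 had 20 or more UMIs and 1 had none; the chloride importer Slc12a2 had 11, 23, 19 and 22 UMIs, the mitochondrial ADP/ATP carrier Slc25a4 had 5, 17, 10 and 18 and the zinc importer Slc39a10 had 0, 17, 3 and 9. This list summed to 5604, 4287, 4425 and 3277 CPM.

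Signalling and regulatory genes were thin. Of 27 PDGF, Notch and TGF-beta genes 1, the BMP receptor Bmpr2 with 24 UMIs, reached 20; Bmpr1a had 18, Smad1 16 and Notch1 13. Of 30 mural transcription factors 4 reached 20: Mef2c had 69 UMIs, the hypoxia factor Epas1 34, Mef2a 30 and Ebf3 20. Of 30 inflammatory genes 2 did, Cxcl12 with 27 and Stat3 with 26; Nfkb1 had 16 and Il6st 12. No gene of the 18 immediate early or the 20 glucocorticoid and circadian genes reached 20; Jund had 15, Dusp1 11, Sgk1 19 and Nr1d2 18. Psap, whose product prosaposin yields a proposed ligand of the GPR37 family, had 2, 37, 10 and 16 UMIs and Gpr37 had 1, 5, 4 and 2. Gpr37l1 itself had 0, 0, 2 and 0 UMIs, both in 1 nucleus. The counts of 0 in WT naive, KO naive and KO SNI allow up to 400.3, 52.9 and 83.3 CPM, the level of 3 UMIs.

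**Figure D4:**
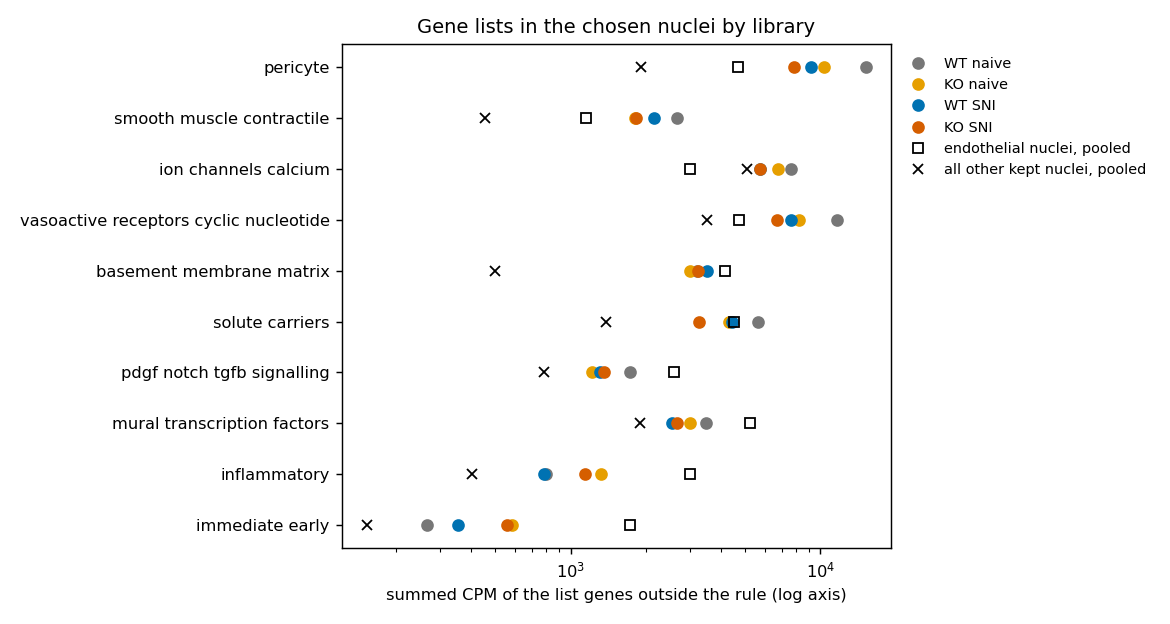
Summed CPM of each gene list (log axis) in the pericyte-like nuclei of each library (filled circles), in endothelial nuclei (squares) and in all other kept nuclei (crosses), rule genes left out. The pericyte list lies above endothelial nuclei in all 4 libraries; the matrix, transcription factor, inflammatory and immediate early lists lie below them.

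Markers of other cell types were present in these nuclei. The 9 neuronal markers, none at 0, summed to 3469, 7251, 4743 and 8053 CPM against 16264 in other nuclei. The 9 oligodendrocyte markers, none at 0, summed to 1601, 3070, 2761 and 2416 against 2527, and the 9 astrocyte markers to 400, 529, 850 and 528 against 413. The 12 endothelial markers, none at 0, summed to 400, 2135, 1239 and 2860 CPM, against 16490 in endothelial nuclei and 134 in other nuclei. The 9 microglial markers summed to 133, 335, 637 and 1027. The 10 fibroblast markers summed to 3, 15, 7 and 6 UMIs, 241 CPM against 106 in other nuclei, with Col1a1, Lum and Slc47a1 at 0. The 8 lymphoid and myeloid markers summed to 8 UMIs, 62.3 CPM against 51.0, with Ptprc, Cd3e, Mrc1 and Cd74 at 0.

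Between libraries, the comparison of genotype after injury (KO SNI to WT SNI) and of injury in the knockout (KO SNI to KO naive) could be given; they share KO SNI, and their values are set side by side without being counted as separate evidence. WT naive, with 11 nuclei, fell below the 20 set for a contrast. For the genes given next the counting intervals included 0. Dlc1 had a log2 ratio of 0.01 (-0.38 to 0.40) by genotype and -0.25 (-0.57 to 0.07) by injury, Cald1 -0.01 (-0.79 to 0.79) and -0.23 (-0.89 to 0.40), Pdgfrb -0.39 (-1.13 to 0.34) and 0.18 (-0.52 to 0.85). Pde8b stood at -0.32 (-0.92 to 0.28) and -0.46 (-0.98 to 0.04), Prkg1 at -0.49 (-1.01 to 0.04) and -0.45 (-0.91 to 0.00), and Cacna1c at 0.20 (-0.50 to 0.92) and 0.14 (-0.45 to 0.71). All these intervals include 0, and changes within them were not detectable at this depth. With nuclei thinned to 1000 UMIs, Dlc1 by injury was at -1.04. Intervals of Utrn, Pitpnc1, Grm3, Ptprk, Plcl1, Mast4, Gpc6, Inpp4b and Tmsb4x also included 0 in both contrasts. Other leading genes went lower. Fry was at -0.83 (-1.44 to -0.22) by genotype and -0.77 (-1.32 to -0.24) by injury. By genotype Plxdc2 was at -0.67 (-1.35 to -0.01) and Foxp1 at -0.79 (-1.60 to -0.01). By injury the intervals of Plxdc2 and Foxp1 included 0. Atp13a5 was 1.84 times lower by genotype (-0.88, -1.40 to -0.37) and near level by injury (-0.14, -0.64 to 0.35). Atp13a5 and Pdgfrb are rule genes, and their ratios are between nuclei that their own UMIs helped to choose.

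Summed over all their genes, the contractile, calcium and matrix lists had intervals that included 0 in both contrasts, while the carrier list in both and the pericyte and vasoactive lists by injury lay below 0. The pericyte list was at -0.23 (-0.48 to 0.02) by genotype and -0.39 (-0.60 to -0.19) by injury, the contractile list at -0.24 (-0.76 to 0.29) and 0.01 (-0.46 to 0.47), the calcium list at 0.00 (-0.30 to 0.31) and -0.23 (-0.48 to 0.02) and the matrix list at -0.12 (-0.52 to 0.28) and 0.10 (-0.25 to 0.45). Carriers and pumps were lower in both, at -0.43 (-0.81 to -0.06) and -0.39 (-0.72 to -0.06), and vasoactive genes at -0.19 (-0.46 to 0.09) and -0.30 (-0.53 to -0.07). The median log2 ratio of all genes with 50 or more UMIs was 0.30 by genotype and -0.16 by injury. By injury the carrier and vasoactive intervals include that median. The pericyte interval lies below it, and Dlc1 and Ebf1 weigh heavily in the pericyte sum. By genotype the carrier interval lies below the median. Ebf1 was lower in both contrasts, at -0.65 (-1.14 to -0.16) and -0.79 (-1.22 to -0.37), against 0.22 (0.04 to 0.40) and -0.06 (-0.21 to 0.10) in endothelial nuclei. Vtn was 1.88 times higher by injury (0.91, 0.11 to 1.72), and was higher in endothelial nuclei (0.69, 0.30 to 1.09) and in other nuclei (0.58, 0.40 to 0.76) as well.

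By genotype after injury, 19 of 86 genes with 50 or more UMIs (22.1%) were 2-fold or more higher and 3 (3.49%) were lower; scaled by the median ratio of genes, which shifts all values by 0.18, the split was 15 and 7. The highest outside the rule were Bsg (58 against 12 UMIs, log2 ratio 1.92, 1.01 to 2.96) and the neuronal genes Opcml (47 against 10), Fam155a (41 against 9), Nrxn3 (90 against 20) and Tmeff2 (55 against 13). Of the 90 Nrxn3 UMIs 45 came from 1 nucleus, and its log2 ratio of 1.82 was 0.61 with nuclei weighted equally. Rgs5, a rule gene, was 3.50 times higher (1.81, 0.92 to 2.80). In endothelial nuclei Rgs5 and Bsg were level, at -0.02 and -0.11. Beside these genes the endothelial marker sum was 1.21 log2 units higher (0.64 to 1.80) and the neuronal marker sum 0.76 higher (0.46 to 1.07) in the pericyte-like nuclei of KO SNI. Restricted to nuclei without an endothelial UMI, none of 37 genes was 2-fold or more higher and 2 were lower; among nuclei under 1500 UMIs the counts were 3 and 2 of 42. Of the lower genes, Trpm3 (26 against 111 UMIs, -2.44, -3.12 to -1.82) had 78 of its 111 WT SNI UMIs in 1 nucleus, and Sptbn1 stood at -0.86.

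By injury in the knockout, 4 of 184 genes (2.17%) were 2-fold or more higher and 11 (5.98%) lower, or 5 and 7 when scaled by the median ratio. Galntl6 had 7 UMIs in KO SNI against 81 in KO naive (-2.88, -4.24 to -1.77), with 23 of the 81 in 1 nucleus, the adhesion gene Negr1 had 10 against 59 (-1.91, -3.04 to -0.93), Nrg1 had 16 against 65 (-1.37), with 21 of the 65 in 1 nucleus, and Sox5 had 19 against 71 (-1.25, -2.06 to -0.50). All 4 were lower in endothelial nuclei too, at -0.58 (-0.94 to -0.22), -0.71 (-1.03 to -0.39), -1.26 (-1.65 to -0.89) and -0.50 (-0.95 to -0.04), while in all other nuclei they stood at -0.13, -0.06, -0.26 and -0.10. The neuronal marker sum was also lower in endothelial nuclei, at -0.49 (-0.61 to -0.38). It was at 0.15 (-0.07 to 0.37) in pericyte-like and -0.12 in other nuclei. Whether the 4 genes follow that sum was not tested. The higher genes were Camta1 (34 against 24 UMIs), Cdh18 (33 against 24), Dst (30 against 22), Erbb4 (34 against 25) and, just under 2-fold, Wwox (34 against 27). Of these, 26 of the 33 Cdh18 UMIs and 16 of the 34 Camta1 UMIs in KO SNI came from 1 nucleus each. Without nuclei holding an endothelial UMI, 0 of 86 genes were higher and 9 lower. The microglial marker sum was 1.62 log2 units higher (0.78 to 2.50) in pericyte-like nuclei of KO SNI and 1.53 in all other nuclei.

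**Figure D5:**
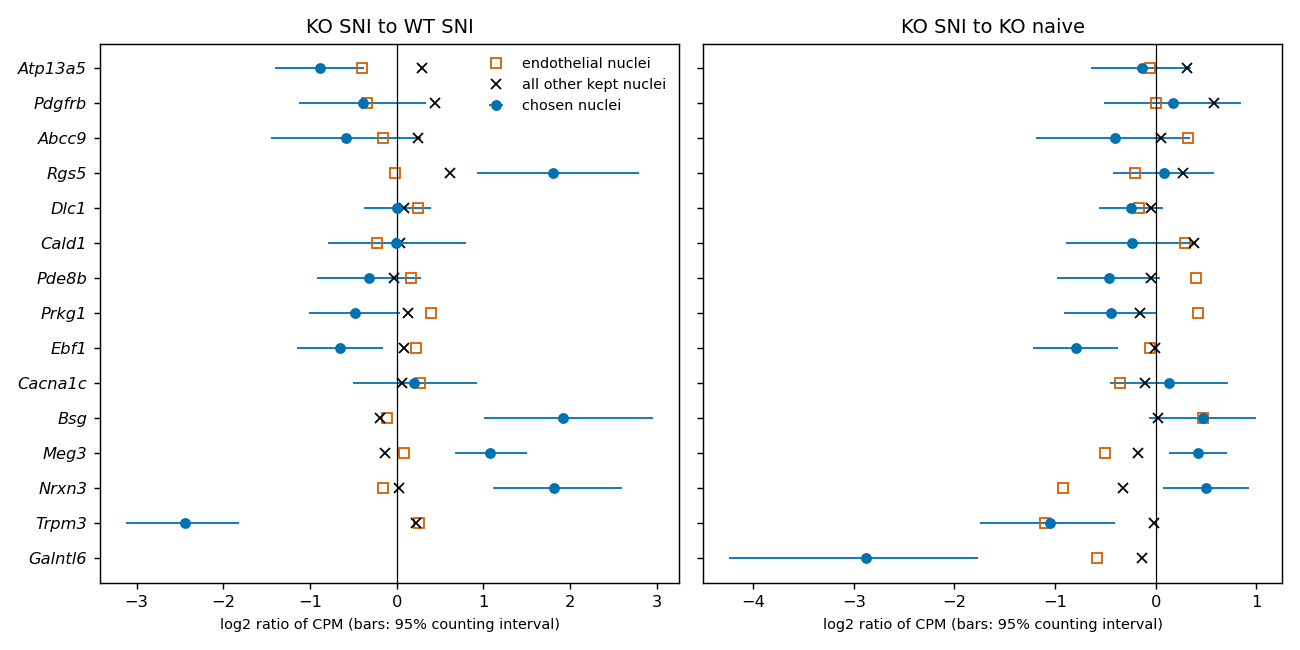
log2 ratios of CPM, KO SNI to WT SNI (left) and KO SNI to KO naive (right), for pericyte-like nuclei (circles, exact 95% counting intervals), endothelial nuclei (squares) and all other kept nuclei (crosses); Galntl6 had under 50 UMIs on the left. Dlc1, Cald1, Pdgfrb and Cacna1c span 0 in both, Ebf1 lies left in both, and Rgs5, Bsg, Meg3 and Nrxn3 lie right on the left-hand side, where the other 2 kinds of nuclei lie near 0 except for Rgs5 in other nuclei.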

How the data were processed

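The authors prepared dorsal horn nuclei on a sucrose gradient and made 10x Genomics 3' libraries, per the labels' protocols. The 4 deposited matrices give UMI counts as whole numbers for 32285 genes; per the file headers they come from Cell Ranger 7.0.0. GRCm38, Seurat 4.3.0 and R 4.3.0 are named in the submitters' processing notes. Intron setting and strand: not given in the sources used here. A minimum of 300 genes and a maximum of 5% mitochondrial UMIs left 112194 of 112746 barcodes. UMIs were summed over the chosen nuclei of each library and given as CPM, scaled to 1000000 without mitochondrial genes. Shares have Clopper-Pearson, levels exact Poisson and ratios exact conditional binomial 95% intervals; ratios with 0 UMIs used a floor of 3. Empty droplets were not measured. Doublets were predicted with scrublet in scanpy 1.11.5 (automatic threshold, or the 90th percentile where it marked under 0.5%) and left in. Coordinates are GENCODE vM21. Genes named were the rule and Gpr37 family genes, up to 4 with the highest level and 3 with the largest change per list, the 20 highest against other nuclei, the 8 highest against endothelial nuclei, and 5 highest and lowest per contrast; predicted genes were passed over, and some results are not reported here. The members, lists and rules were chosen with earlier results of these data known. The interval code was tested on simulated data, and alternatives are given in the closing section.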

Additional observations from a re-analysis of the deposited data

How the results depend on the processing

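With 1 library per group nothing here separates genotype or injury from library. No paired analysis was possible because each group holds 1 library. The share of kept nuclei, 0.109%, was 0.146% at 3 marker UMIs, 0.0481% at 6, 0.0767% at a share of 0.5%, 0.0896% at 500 genes and 0.0424% with nuclei thinned to 1000 UMIs; it kept within its interval without doublets, without glial-rich nuclei and at 0.2%. The 11 genes 4-fold above other nuclei were 33 at 50 UMIs, 4 at 200, 3 without KO naive (fewer genes reached the minimum) and 9 to 10 without another library. Smooth-muscle-leaning nuclei numbered 0 at a minimum of 4 UMIs, 2 without KO SNI, and 3 or 4 without another library. Genes 2-fold higher and lower by genotype after injury (19 and 3) were 72 and 30 at 20 UMIs, 2 and 1 at 100, 1 and 1 with nuclei thinned, 8 higher at 6 marker UMIs, 11 higher with nuclei weighted equally, 7 lower under median scaling and 6 lower without glial-rich nuclei. By injury in the knockout (4 and 11) they were 46 and 67 at 20 UMIs, 0 and 3 at 100, 0 and 5 thinned, 2 higher with equal weights and 7 lower under median scaling. A pair of restrictions was added after seeing the data. Without nuclei holding an endothelial UMI, 0 genes were higher in both contrasts; under 1500 UMIs, 3 and 0 were higher. Nrxn3 by genotype changed from 1.82 to 0.61 with equal weights, and Dlc1 by injury from -0.25 to -1.04 with nuclei thinned. Nrxn3 by injury changed from 0.50 to 1.40 at 6 marker UMIs, -0.84 with equal weights, -1.72 without endothelial UMIs and -1.85 under 1500 UMIs, Trpm3 by genotype from -2.44 to -3.22 at 6 marker UMIs, -3.91 thinned and -1.70 with equal weights, and Pde8b by genotype from -0.32 to 0.37 without endothelial UMIs. Fewer genes were tested at higher minimums and in fewer nuclei; other causes were not tested. Of the recalculated shares and counts, 32 moved and 32 did not, a share by leaving its interval and a count by more than a fixed fold. Among recalculated single-gene ratios and list medians, 12 moved by more than a fixed margin in log2 units and 264 did not. That margin was the same for every value and is not a counting interval.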
